A study of Mus musculus with 10 samples.

Results

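The genes described here encode the mitochondrial ribosomal proteins, chosen as the rows of the deposited expression table whose biotype was protein_coding and whose gene name began with Mrpl or Mrps followed by a digit. The rule found 77 of 78317 genes, of which 50 encode proteins of the large subunit and 26 of the small subunit. The remaining one, Mrps36, carries the family name but encodes a protein that joins the 2-oxoglutarate dehydrogenase complex and is not counted here as a ribosomal subunit. Mrps18a and Mrps30 were placed with the large subunit, in which their proteins lie. Messenger RNA was sequenced from 1-mm punches of medial prefrontal cortex, taken from wild-type mice. The control group held 5 libraries (3, 4, 5, 7 and 9) from mice that received a control adeno-associated virus (AAV). The other group held 5 libraries (13, 14, 15, 17 and 18) from mice that received an AAV for overexpression of the microRNA miR-130a-3p. Every animal had thus received a virus, and the strain, age, promoter and time after injection are not given in the sources used here. The labels do not say whether each library came from its own mouse, so p-values measure the spread between libraries, which may be technical.

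Mitochondria keep their own ribosome, which translates the few messenger RNAs of mitochondrial DNA into core subunits of the respiratory chain and of ATP synthase. Its RNAs are made inside the organelle, while all of its proteins are encoded in the nucleus, made on cytosolic ribosomes and imported. Some of these proteins descend from bacterial ribosomal proteins and others were added during mitochondrial evolution. Neurons depend heavily on oxidative phosphorylation, and inherited defects of several of these proteins affect the brain and heart.

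The sequence of the overexpressed microRNA is shown first, since its seed (bases 2 to 8, in capitals) defines the sites that were searched in the members. RefSeq places it at chr2:84741116-84741137 of GRCm38.p6, on the minus strand.
mmu-miR-130a-3p: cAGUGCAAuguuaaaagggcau
Matches were searched as TTGCACT or TGCACTA in 1 annotated 3′ untranslated region (UTR) per gene, the longest, taken from GENCODE M21. Of the 77 members, 4 held a match (5.19%), against 15.9% of the 13258 genes tested that had an annotated 3′ UTR. The members' 3′ UTRs were shorter, with a median of 387 bases against 1210 bases. The matches, in capitals with their flanking bases, are the only ones in the members' UTRs searched and are shown for that reason. Other parts of the members' transcripts were not searched.
Mrps25: gcaaatttTTGCACTtggcttca
Mrpl48: tagcaaaaTGCACTAcagtgcgt
Mrps2: cattgtgcTGCACTActaaagaa
Mrpl19: gcactctcTTGCACTgatttcac
None of these 4 genes passed the test between the groups. Their log2 fold changes of TPM + 1 (TPM is a level per transcript length, scaled to a fixed total), given throughout as miR-130a-3p minus control, were 0.28 for Mrps25, -0.03 for Mrpl48, -0.09 for Mrps2 and -0.04 for Mrpl19. A match is a description of these letters and not a measured site.

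Facts of the whole data set bear on every result below. Mir130a (ENSMUSG00000065484), the gene of the microRNA itself, was listed above 0 in 0 of 10 libraries, so the overexpression cannot be checked in these poly(A) libraries. The depth of each library is unknown, since TPM does not preserve it. The tissue label was met by markers of excitatory neurons, whose 6 genes summed to between 1689 and 3225 TPM in control and between 2016 and 2498 TPM in miR-130a-3p libraries, with 0 of 6 called. Of 10 genes of microglia 9 fell, with summed levels of 1541 to 3142 TPM in control against 599 to 872 TPM. Of 8 genes of activated microglia 7 fell, from 1850 to 2588 TPM down to 783 to 985 TPM, all 6 of reactive astrocytes fell, from 444 to 937 TPM down to 116 to 244 TPM, and all 5 of endothelial cells fell, from 136 to 157 TPM down to 90.1 to 121 TPM. Of 6 genes of inhibitory neurons 2 rose, with sums of 893 to 1135 TPM against 1254 to 1640 TPM. Of the genes tested on other lists, 0 of 6 were called for astrocytes, 0 of 6 for oligodendrocytes, 0 of 4 for their precursors and 0 of 5 for blood, while 2 of 4 fell for T and B cells, 1 of 1 for choroid plexus and ependyma and 1 of 4 for striatum. No marker was at 0 in all libraries, and those at 0 in some included Ms4a1, Ttr and Folr1. In bulk tissue fewer cells of a type and less RNA per cell cannot be told apart, and the part of these marker changes in the results below was not tested.

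All 77 members were listed above 0 in all 10 libraries, and all 77 passed the filter of a mean of at least 1 TPM. Their mean levels over the 10 libraries ran from 4.49 TPM for Mrpl1, whose bacterial counterpart forms the mobile stalk by which spent tRNA leaves, to 194 TPM for Mrps21. The median member stood at 45.5 TPM. Levels of 69 members lay between 10 and 100 TPM, 2 lay below 10 TPM (Mrpl1 and Mrpl35) and 6 above 100 TPM. The 6 highest were Mrps21, Mrps23 (144 TPM), Mrpl52 (122 TPM), Mrpl30 (119 TPM), Mrpl20 (116 TPM) and Mrpl42 (101 TPM). The neighbours Mrpl52, Mrpl30 and Mrpl20 lay closer together than the SD of Mrpl52 between libraries. The order of the members was nearly the same in both groups, with a Spearman correlation of 0.977 between the group means over the 77 genes. This value describes genes that share libraries and is not a test.

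With limma and Benjamini-Hochberg adjustment over the 15680 genes tested, 4 of 77 members rose (5.19%) and 0 fell at an adjusted p under 0.05. Over all genes tested 13.5% were called, 2.19% higher and 11.3% lower. At an unadjusted limma p under 0.05, 14 members were higher and 1 was lower, where the shares over all genes were 6.36% higher and 22.0% lower. The median log2 fold change of the members was 0.02, with quartiles of -0.05 and 0.22, beside a median of -0.09 over all genes tested. Fold changes of 43 members were above 0 and those of 34 were below 0, and 62 of 77 lay above the median of all genes. The split around 0 depended on the scaling: 67 members were above 0 with median-ratio scaling, 66 with quantile normalization and 58 after rescaling without mitochondrially encoded genes. The 95% interval of the fold change stayed within 1.5-fold in either direction for 70 members (90.9%), against 56.1% of all genes. The other 7 were Mrpl34, Mrps33, Mrpl47, Mrps21, Mrps18c, Mrps25 and Mrpl23. The median SD of log2(TPM + 1) within a group was 0.17 over the members, against 0.23 over all genes. All genes tested include those down to a mean of 1 TPM, while the median member stood at 45.5 TPM. Neither the intervals nor the SDs were compared with genes of matched level.

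**Figure D1:**
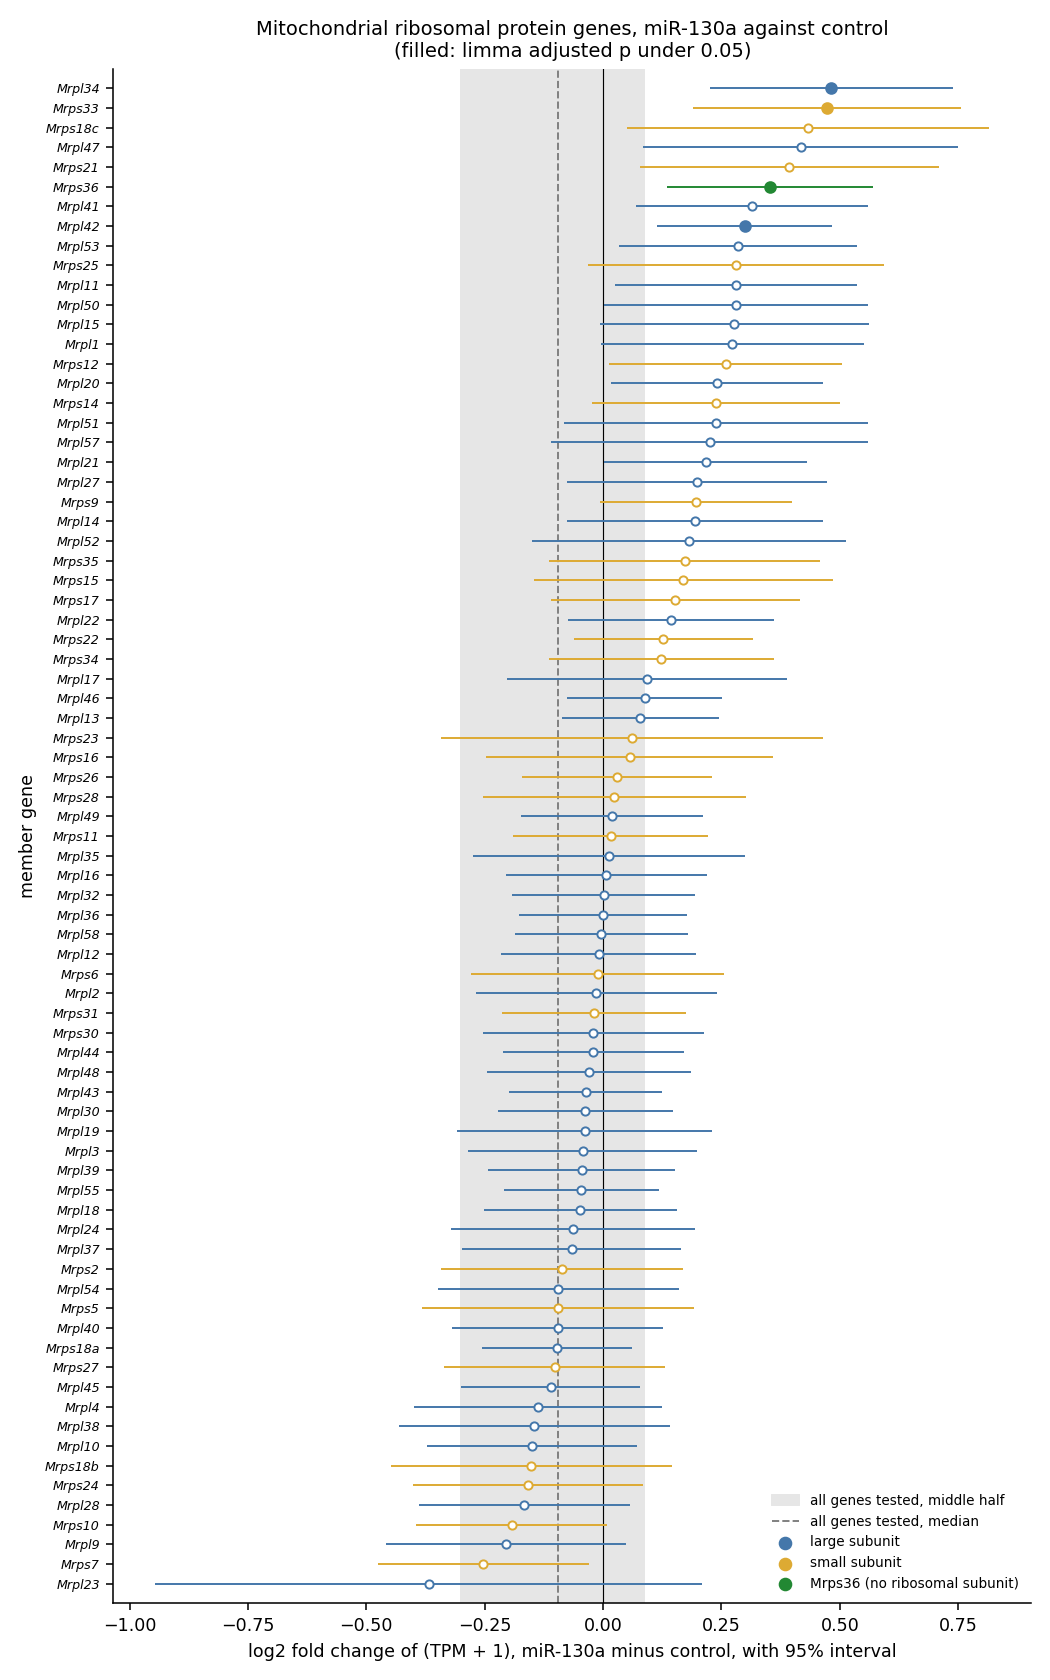
Log2 fold change of (TPM + 1), miR-130a-3p minus control, of each of the 77 members (points) with its 95% interval from limma (lines), 5 against 5 libraries; colours give the subunit, filled points passed an adjusted p of 0.05, and the grey band and dashed line give the quartiles and median of all 15680 genes tested. The 4 filled points are Mrpl34, Mrps33, Mrps36 and Mrpl42, all to the right of 0, and Mrpl23 at the bottom has the widest interval.

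The call count depended on single libraries, and the share of all genes called higher moved with them. The count was 0 without miR-130a-3p library 13, 1 without control library 4, 5 or 7 or miR-130a-3p library 15, 2 without control library 3 or miR-130a-3p library 14, 3 without library 17, 5 without library 18 and 7 without control library 9. Without control library 3, 4, 5, 7 or 9, in this order, 1.28%, 1.45%, 1.70%, 0.894% and 3.23% of all genes were called higher. Without miR-130a-3p library 13, 14, 15, 17 or 18, these shares were 0.947%, 1.02%, 1.22%, 2.34% and 1.99%. A count of 1 was 1.30% of the members, 2 was 2.60% and 3 was 3.90%. With control libraries 7 and 9 left out together, 8 members rose and 0 fell, where 2.36% of all genes were called higher. This pair was chosen from earlier results of these data, which are not shown here.

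Mrpl34 (ENSMUSG00000034880), which encodes a small large-subunit protein with a bacterial homologue, showed the highest fold change. It stood at 45.7, 51.9, 38.5, 56.9 and 46.4 TPM in control libraries 3, 4, 5, 7 and 9, and at 73.0, 57.0, 65.2, 76.1 and 64.1 TPM in miR-130a-3p libraries 13, 14, 15, 17 and 18. The groups did not overlap, although control library 7 and miR-130a-3p library 14 nearly met. The means were 47.9 ± 6.93 TPM (SD, n = 5) and 67.1 ± 7.60 TPM (SD, n = 5), a log2 fold change of 0.48 with a standard error (SE) of 0.12 and a limma adjusted p of 0.0197. Of 10 fits that each left out 1 library, only the one without library 13 lost this call, at a limma adjusted p of 0.0566.

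Mrps33 (ENSMUSG00000029918) encodes a mitochondrion-specific protein of the small subunit. Its level was 76.2, 63.9, 56.4, 66.3 and 82.6 TPM in the control libraries, and 116, 104, 96.4, 83.4 and 81.1 TPM in the miR-130a-3p libraries, in the same order of numbers. Libraries 13 and 14 stood highest, and library 18 fell below control library 9, so the groups overlapped. The mean rose from 69.1 ± 10.4 to 96.3 ± 14.7 TPM (SD, n = 5 each), a log2 fold change of 0.47 with an SE of 0.13 and a limma adjusted p of 0.0328. The call was lost in 6 of 10 fits that left out 1 library, without control library 4, 5 or 7 or miR-130a-3p library 13, 14 or 15, with limma adjusted p up to 0.0844.

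Mrpl42 (ENSMUSG00000062981), a mitochondrion-specific protein of the large subunit, had the narrowest spread of the 4. Control libraries lay at 85.4, 85.1, 89.7, 95.3 and 94.3 TPM, and miR-130a-3p libraries at 121, 98.8, 113, 120 and 103 TPM. Every miR-130a-3p library was above every control library. The mean rose from 89.9 ± 4.79 to 111 ± 9.86 TPM (SD, n = 5 each), a log2 fold change of 0.30 with an SE of 0.08 and a limma adjusted p of 0.0371. This call was lost in 7 of 10 fits, those without control library 3, 4, 5 or 7 or miR-130a-3p library 13, 15 or 17, with limma adjusted p up to 0.101.

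Mrps36 (ENSMUSG00000061474), the protein of the 2-oxoglutarate dehydrogenase complex, was the only called member outside the ribosome. It stood at 66.6, 62.0, 63.6, 74.3 and 76.5 TPM in the control libraries and at 105, 79.5, 87.6, 88.7 and 79.7 TPM in the miR-130a-3p libraries. The groups did not overlap, and library 13 was highest. The mean rose from 68.6 ± 6.45 to 88.0 ± 10.2 TPM (SD, n = 5 each), a log2 fold change of 0.35 with an SE of 0.10 and a limma adjusted p of 0.0377. The call was lost in 8 of 10 fits, all but those without control library 9 or miR-130a-3p library 18, with limma adjusted p up to 0.0944.

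**Figure D2:**
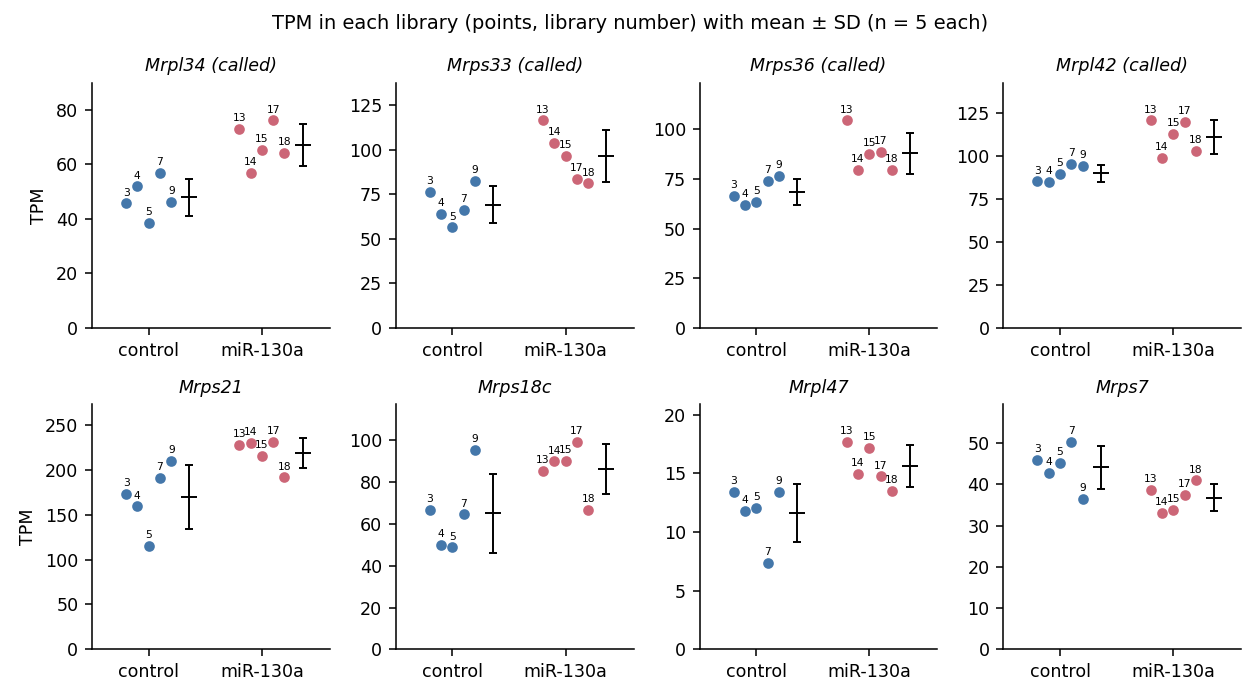
TPM of 8 members in each library, control AAV in blue and miR-130a-3p AAV in red, with library numbers at the points and the mean ± SD (n = 5 each) beside them; the upper panels hold the 4 members that passed the test. Mrpl34, Mrps36, Mrpl42 and Mrpl47 do not overlap between the groups, and library 13 is the highest miR-130a-3p library for Mrps33, Mrps36, Mrpl42 and Mrpl47.

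Counted by overlap, 4 members had every miR-130a-3p library above every control library and 0 had the reverse, where the shares over all genes tested were 1.85% and 9.46%. Beside Mrpl34, Mrps36 and Mrpl42 these included Mrpl47, a homologue of a bacterial protein near the mouth of the exit tunnel, which did not pass the limma test (adjusted p = 0.0939). Mrpl47 stood at 13.5, 11.8, 12.1, 7.38 and 13.4 TPM in the control libraries and at 17.7, 14.95, 17.2, 14.8 and 13.5 TPM in the miR-130a-3p libraries. Control library 7 was far below the rest, and library 18 was barely above the highest control.

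Small-subunit members with a bacterial homologue numbered 16, of which 0 passed the test (median log2 fold change 0.04). The most abundant, Mrps21, had means of 170 ± 36.1 and 219 ± 16.7 TPM (SD, n = 5 each), with a log2 fold change of 0.39 and a limma adjusted p of 0.0969. Its control libraries ran from 115 to 210 TPM and its miR-130a-3p libraries from 191 to 231 TPM, so that control library 9 overlapped the other group. Mrps18c, whose relatives Mrps18a and Mrps18b are listed here as mitochondrion-specific, stood at 65.1 ± 18.8 and 86.4 ± 12.04 TPM (SD, n = 5 each; limma adjusted p = 0.126). Control library 9 was at 95.4 TPM for Mrps18c. Mrps12, part of the decoding centre, had means of 88.2 and 105 TPM (limma adjusted p = 0.155).

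Mrps7, an rRNA-binding protein of the small-subunit head, was the single member lower at an unadjusted p under 0.05. Its means were 44.1 ± 5.12 and 36.8 ± 3.30 TPM (SD, n = 5 each), a log2 fold change of -0.25 with a limma adjusted p of 0.126. The lowest control was library 9, at 36.4 TPM, and the highest miR-130a-3p library was 18, at 41.0 TPM. Without control library 9 this gene passed the limma test.

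Mitochondrion-specific members of the small subunit numbered 10, with Mrps33 the single call (median log2 fold change 0.09). Mrps25 and Mrps22, both of which carry variants in human mitochondrial disease, had log2 fold changes of 0.28 and 0.13, with limma adjusted p of 0.225 and 0.374. Mrps23, the second most abundant member, stood at 143 ± 35.04 and 146 ± 24.2 TPM (SD, n = 5 each).

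Large-subunit members with a bacterial homologue numbered 29, with Mrpl34 the single call (median log2 fold change 0.00). Mrpl11, at the base of the stalk where translation factors bind, had a log2 fold change of 0.28 (limma adjusted p = 0.139). Mrpl12, the stalk protein itself, stood at 71.4 ± 5.75 and 71.1 ± 7.49 TPM (SD, n = 5 each), a log2 fold change of -0.01 with a 95% interval of -0.22 to 0.20. Mrpl20 had means of 106 and 126 TPM (limma adjusted p = 0.145), Mrpl30 of 120 and 117 TPM, and the least abundant member, Mrpl1, of 3.95 ± 0.316 and 5.03 ± 0.961 TPM (SD, n = 5 each; limma adjusted p = 0.182).

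Mitochondrion-specific members of the large subunit numbered 21, with Mrpl42 the single call (median log2 fold change -0.02). Mrpl41 stood at 67.6 ± 9.95 and 84.0 ± 8.59 TPM (SD, n = 5 each; limma adjusted p = 0.0867), and Mrpl53 had a log2 fold change of 0.29 (limma adjusted p = 0.125). Mrpl52, the most abundant of the list, had means of 116 ± 28.4 and 129 ± 13.6 TPM (SD, n = 5 each). Mrpl58, a peptidyl-tRNA hydrolase that is built into the ribosome and frees stalled chains, stood at 63.0 ± 4.69 and 62.8 ± 4.17 TPM (SD, n = 5 each), with a log2 fold change of -0.00 and a 95% interval of -0.19 to 0.18.

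Fold changes among the members went with the length of the coding sequence. Every member had a coding length in GENCODE M21, with a median of 588 bases and a range of 261 to 1326, against a median of 1395 bases over 13319 genes tested. The Spearman correlation between log2 fold change and coding length was -0.47 over the 77 members and -0.19 over those 13319 genes. These correlations run over genes that share libraries, so no p is given. The 25 shortest members (261 to 480 bases) had a median log2 fold change of 0.24, with 20 above 0 and all 4 calls among them. The middle 26 (498 to 753 bases) had a median of 0.01, and the longest 26 (756 to 1326 bases) had a median of -0.04, with 8 above 0. Over all genes of the same 3 length ranges the medians were 0.06, -0.04 and -0.10, and 10.6%, 4.17% and 1.69% were called higher. The correlation over the members kept its sign in every alternative fit and with each library left out, between -0.37 and -0.57. With transcript length instead of coding length it was -0.12.

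**Figure D3:**
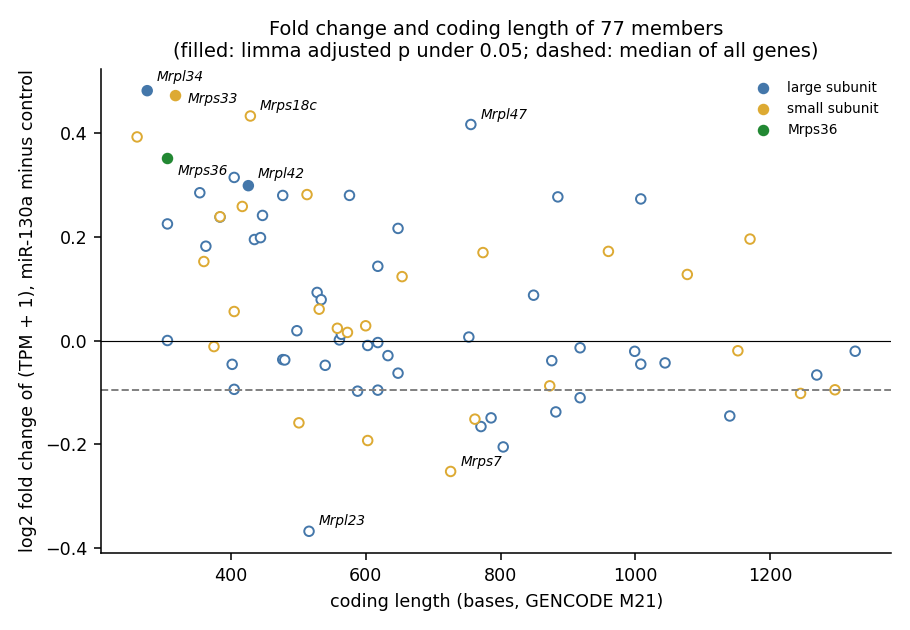
Log2 fold change of (TPM + 1) of each of the 77 members (points, coloured by subunit, filled where the limma adjusted p was under 0.05) against its coding length in bases from GENCODE M21; the dashed line is the median of all genes tested. The 4 called members lie among the 25 shortest, at 276 to 426 bases.

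The region before the transcription start of the 4 called members is shown because they were the members that rose, and promoters of this family are known to hold sites of a few factors. Each line gives 100 bases before the RefSeq start, on the gene's strand of GRCm38.p6. Capitals mark matches to the ETS, YY1, Thap11 and NRF1 core letters, while SP1 letters, which were also searched, are left in lower case. The windows are chr8:71464826-71464925 (plus strand) for Mrpl34, chr6:39810937-39811036 (minus) for Mrps33, chr10:95501950-95502049 (minus) for Mrpl42 and chr13:100744660-100744759 (minus) for Mrps36.
Mrpl34: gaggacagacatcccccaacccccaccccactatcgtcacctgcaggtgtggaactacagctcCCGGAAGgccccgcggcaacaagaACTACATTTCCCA
Mrps33: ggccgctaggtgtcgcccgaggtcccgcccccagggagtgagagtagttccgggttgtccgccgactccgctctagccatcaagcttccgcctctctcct
Mrpl42: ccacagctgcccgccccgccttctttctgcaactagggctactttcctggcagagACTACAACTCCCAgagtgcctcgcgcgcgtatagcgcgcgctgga
Mrps36: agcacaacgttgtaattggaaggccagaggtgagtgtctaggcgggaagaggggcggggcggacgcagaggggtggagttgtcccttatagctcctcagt
In Mrpl34 the capitals mark CCGGAAG, the core bound by ETS factors such as GABPA, 37 bases before the start, and the Thap11 motif 13 bases before it. In Mrpl42 they mark the Thap11 motif 45 bases before the start. Mrps33 and Mrps36 had none of the capitalised motifs in these 100 bases, and the ETS letters of Mrps33 (CTTCCGG on the printed strand) began at base 39 after its start. Also outside the printed bases, the YY1 letters of Mrpl42 (AAGATGGC) began at base 28 after its start. A further Thap11 match of Mrpl34 began 203 bases before its start.

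Over windows of 300 bases (250 before and 50 after the start, both strands), 68 of the 77 members could be matched to RefSeq promoters. The ETS letters were in 24 of 68 member windows (35.3%), against 16.9% of the 10981 windows of genes tested and 9.12% of all 27025 windows. AAGATGGC, the letters of YY1, were in 12 (17.6%), against 4.49% and 2.88%. GCATGCGC, the core of NRF1, was in 7 (10.3%), against 5.15% and 2.80%, and the longer NRF1 palindrome, which contains it, in 3 (4.41%), against 1.89% and 0.977%. GGGCGG, the letters of SP1, were in 34 of 68, below the 63.6% of genes tested and above the 35.9% of all windows. The Thap11 motif, with 2 free bases in its middle and added after the windows of the called members had been seen, was in 5 (7.35%), against 3.45% and 1.62%: Mrpl24, Mrpl34, Mrpl42, Mrpl50 and Mrps22. Mrpl34 and Mrpl42 are among the called members seen first, so the members' share of this motif is not independent of its choice. These shares describe letters in a window and not binding.

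Added up, the 77 members made 3821, 3780, 3592, 3916 and 3925 TPM in control libraries 3, 4, 5, 7 and 9, and 4324, 3975, 4092, 4268 and 3695 TPM in miR-130a-3p libraries 13, 14, 15, 17 and 18. Library 18 lay below 4 of the 5 controls, and the other 4 miR-130a-3p libraries lay above every control. The group means were 3807 ± 135 and 4071 ± 252 TPM (SD, n = 5 each), a difference of 6.93%. No test is given for this sum. The large-subunit sum was 2403 ± 51.7 and 2515 ± 147 TPM, and the small-subunit sum 1336 ± 85.0 and 1467 ± 98.6 TPM (SD, n = 5 each). Their ratio was 1.80 ± 0.0885 in control and 1.72 ± 0.0325 in miR-130a-3p libraries (SD, n = 5 each), with overlapping ranges.

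The mean share of TPM taken by all genes of mitochondrial DNA, its rRNA and tRNA genes included, was also higher in the miR-130a-3p group. It was 14.7% ± 1.48 in control and 18.2% ± 1.96 in miR-130a-3p libraries (SD, n = 5 each; exact permutation test, 2-sided, p = 0.0397), and since TPM adds to a fixed total it lowers all other values. After rescaling without those genes the summed members were 4466 ± 213 and 4976 ± 217 TPM (SD, n = 5 each), a difference of 11.4%, and the same 4 members were called. As deposited, the share and the members' sum went together differently in each group. In control, libraries 4 and 5 had the lowest shares (13.04% and 13.61%) and the lowest sums, and library 9 had the highest of both. In the miR-130a-3p group the order ran the other way. There the share was 16.02% and 16.19% in libraries 13 and 17, which had the highest sums. It was 19.92% and 19.80% in libraries 14 and 18, which had the lowest sums. The relation was not tested. The shares of the groups overlapped, with control library 9 at 16.43%.

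**Figure D4:**
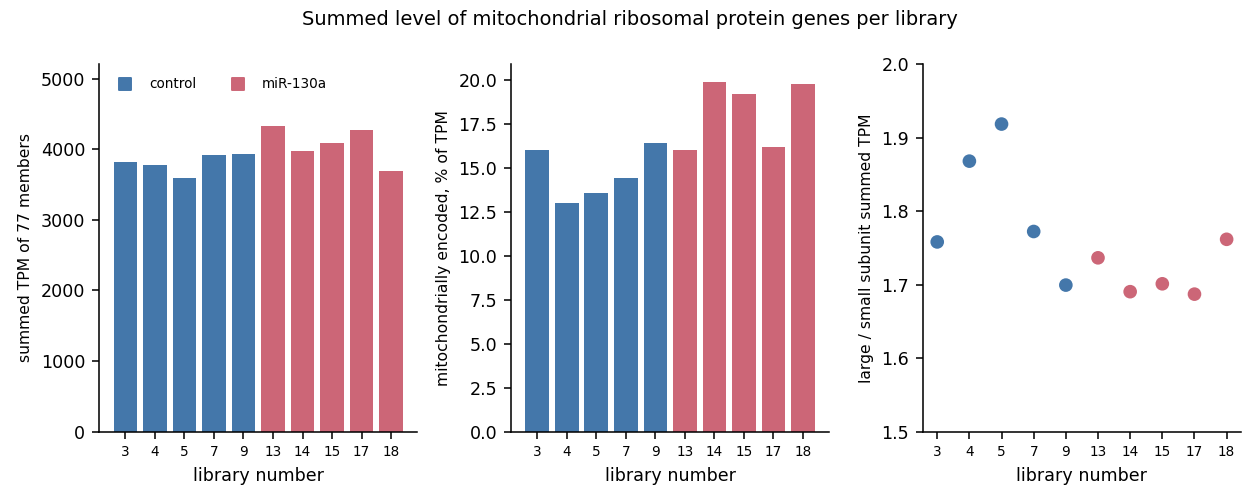
Summed TPM of the 77 members in each library (left), share of TPM from mitochondrially encoded genes (middle) and ratio of summed large-subunit to small-subunit TPM (right, axis not from 0), control AAV in blue and miR-130a-3p AAV in red. The sums run from 3592 to 3925 TPM in control and from 3695 to 4324 TPM in miR-130a-3p libraries.

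Mrpl23 (a large-subunit protein with a bacterial homologue) had the lowest fold change and the widest spread, and its reads may be shared with a processed pseudogene. Mrpl23 stood at 15.7, 11.6, 17.3, 14.3 and 17.7 TPM in the control libraries and at 6.35, 14.9, 11.0, 22.3 and 8.49 TPM in the miR-130a-3p libraries, which held both its lowest and its highest value. Its log2 fold change was -0.37 with a 95% interval of -0.95 to 0.21 (limma adjusted p = 0.4). The pseudogene Mrpl23-ps1 was listed higher than the gene, at 74.8 ± 16.8 and 86.0 ± 10.01 TPM (SD, n = 5 each). The sum of both was 90.2 ± 17.01 and 98.7 ± 6.71 TPM (SD, n = 5 each; exact permutation test, 2-sided, p = 0.365), and the share of Mrpl23 in it was 17.5% ± 4.74 and 12.9% ± 6.46 (p = 0.214 in the same exact test). The values of Mrpl23 are therefore uncertain.

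Mrpl33 fell outside the rule because the table gives it the biotype nonsense_mediated_decay. It stood at 85.2 ± 20.8 and 117 ± 11.4 TPM (SD, n = 5 each), a log2 fold change of 0.49 with a limma adjusted p of 0.0788. The 5 ribosomal proteins that carry other symbols gave 0 calls in either direction, with a median log2 fold change of 0.13. They were Dap3 (a GTP-binding protein of the small subunit, -0.01), Ptcd3 (small subunit, 0.26), Aurkaip1 (small subunit, -0.09), Chchd1 (small subunit, 0.32) and Gadd45gip1 (large subunit, 0.13), with limma adjusted p from 0.16 for Ptcd3 to 0.956 for Dap3.

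Genes that build and serve the mitochondrial ribosome gave few calls as well. Of 27 genes for assembly and rRNA modification 2 fell and 0 rose (7.41% called), where 11.3% of all genes tested were lower. The list's median log2 fold change was -0.097, against -0.095 over all genes. Trub2, a pseudouridine synthase acting on mitochondrial RNA, fell from 15.8 ± 2.96 to 10.3 ± 1.57 TPM (SD, n = 5 each), a log2 fold change of -0.57 with a limma adjusted p of 0.0189. Noa1, a GTPase needed for small-subunit assembly, fell from 15.6 ± 2.03 to 11.4 ± 0.893 TPM (SD, n = 5 each), a log2 fold change of -0.42 with a limma adjusted p of 0.0248. Both calls were lost without control library 7 or without miR-130a-3p library 13, that of Trub2 also without library 14, and that of Noa1 also without control library 3 or 5 and under quantile normalization or rescaling without mitochondrially encoded genes. Without control library 9 the list had 4 lower, where 18.7% of all genes were lower.

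Of 17 translation factors and activators 0 were called (median log2 fold change -0.03). Their lowest p were those of Oxa1l, the insertase for newly made chains (-0.27, limma adjusted p = 0.102), and Mtres1, a rescue factor for stalled ribosomes (0.25, limma adjusted p = 0.112). Of 20 genes listed as aminoacyl-tRNA synthetases, among them the amidotransferase genes Qrsl1, Gatb and Gatc, 1 rose and 0 fell (median -0.04). This was Rars2, the arginyl enzyme, at 7.92 ± 1.30 and 11.4 ± 2.08 TPM (SD, n = 5 each; limma adjusted p = 0.0489), a call that was lost in 8 of 10 fits with 1 library left out, all but those without control library 5 or miR-130a-3p library 17. Lars2, the leucyl enzyme, had a log2 fold change of 0.29 (limma adjusted p = 0.113).

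Upstream of the ribosome, 0 of 15 genes tested for mitochondrial DNA copying, transcription and RNA cutting were called (median log2 fold change -0.04). Elac2, which cuts the 3′ ends of mitochondrial tRNAs, had a log2 fold change of -0.27, and Prorp, which cuts their 5′ ends, of -0.34, with limma adjusted p of 0.15 and 0.208. Of 11 regulators of mitochondrial biogenesis 0 were called (median -0.12), with Nrf1 at -0.30 and Myc at -0.43 (limma adjusted p of 0.0966 and 0.108).

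Of the 13 mitochondrially encoded messenger RNAs that this ribosome translates, 8 were higher and 0 lower, with a median log2 fold change of 0.49. Among the 8 was mt-Co2, with a mean over all libraries of only 271 TPM. The means of mt-Co1 and mt-Atp8, which were not called, were 33593 and 46993 TPM. The reason for such unequal levels was not tested. The mRNA of the complex I subunit mt-Nd6 rose from 3924 ± 464 to 5756 ± 297 TPM (SD, n = 5 each; limma adjusted p = 0.0079), and that of mt-Nd4l from 3731 ± 1052 to 7059 ± 1591 TPM (SD, n = 5 each; limma adjusted p = 0.019). Values of overlapping or antisense mitochondrial genes, these included, are uncertain, since the strand setting of the counting is not given in the sources used here. The count was 2 without control library 7, 4 without control library 3 or miR-130a-3p library 14 or 18, and 5 without control library 4 or miR-130a-3p library 15 or 17.

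The closest families by function are the nuclear subunits of the respiratory chain and the cytosolic ribosomal proteins. Of 92 respiratory chain genes tested 37 rose and 1 fell, with a median log2 fold change of 0.34. Of 99 cytosolic ribosomal genes tested 1 rose and 6 fell (7.07% called), with a median of -0.05. Over all genes tested 2.19% were called higher and 11.3% lower, with a median of -0.09. The members, with 4 of 77 higher and a median of 0.02, lay between the respiratory chain and the cytosolic ribosome. No difference between the lists was tested. Both comparison lists were chosen by symbol and held some genes that are not subunits. These were left out in a second count, as were relatives of ribosomal proteins such as Rpl3l, Rpl10l and Rps27l. The counts were then 36 higher and 1 lower of 82, and 1 higher and 5 lower of 85. Leaving out library 14 reduced the 6 lower cytosolic ribosomal genes to 3, and the count of 1 higher was 0 in 8 of 10 such fits and 3 without control library 9. The count of 37 was 14 without library 13 and 17 without control library 7, and between 20 and 24 without control library 3 or 4 or miR-130a-3p library 14, 15 or 17.

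**Figure D5:**
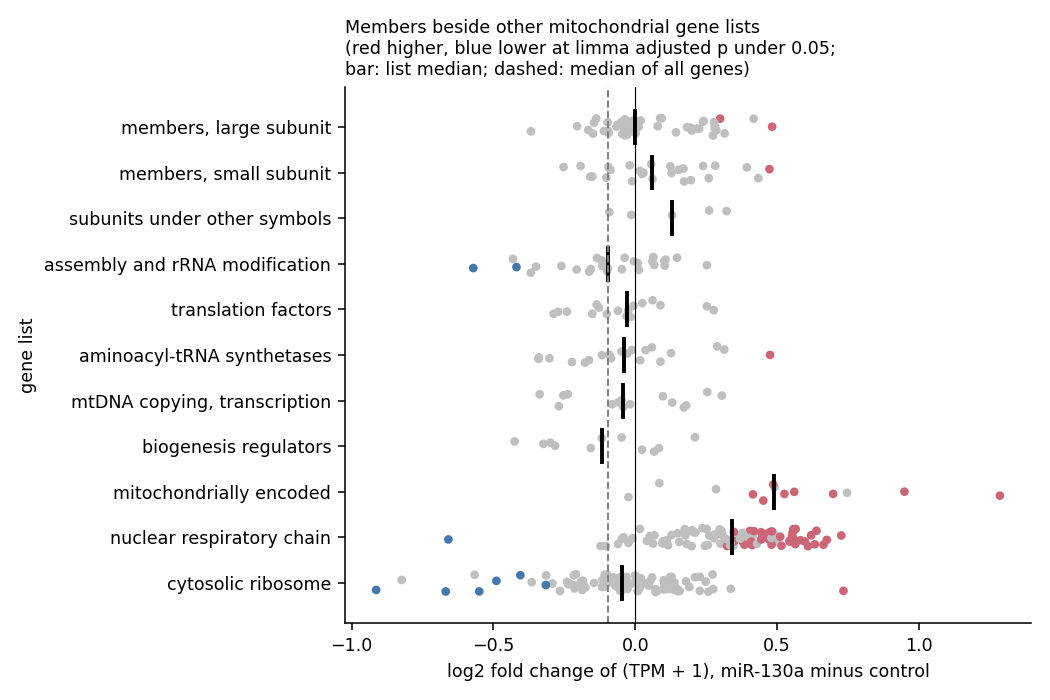
Log2 fold change of (TPM + 1) of each tested gene (points) of 11 lists, with the list median (bar), the median of all genes tested (dashed) and genes past a limma adjusted p of 0.05 in red (higher) or blue (lower). The members' lists centre near 0, at -0.00 for the large and 0.06 for the small subunit, while the mitochondrially encoded genes centre at 0.49 and the nuclear respiratory chain at 0.34.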

How the data were processed

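RNA was sequenced from 10 punches of mouse medial prefrontal cortex, with stranded poly(A) libraries made by ligation from RNA of an integrity number of at least 6.5, per the labels' protocols. The authors deposited TPM per gene and library. The submitters' processing notes name fastp, HISAT2, RSEM and DESeq2 with the build GRCm39, and their versions, roles and strand settings are not given in the sources used here. Since TPM values add to a fixed total, a rise in abundant genes lowers all others. The deposited TPM gave no counts, so no count model was run, and depth is unknown.

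Columns were assigned by the sample titles. The 15680 genes whose mean over the 10 libraries reached 1 TPM were compared with limma 3.58.1 (lmFit, eBayes with trend) in R 4.3.3 on log2(TPM + 1), a scale that understates changes of low genes, 5 against 5, 2-sided, with Benjamini-Hochberg adjustment over all of them and a threshold of 0.05. The fit was tested on simulated data. Sums were computed in Python 3.11.15, and exact permutation tests, unadjusted, were used for single values. The members and all gene and marker lists were chosen with earlier results of these data known, so no list was tested as a set. One marker gene is not reported here by name. Named genes were the members past the threshold, the 3 most abundant of each subunit, the least abundant, the 3 of lowest p in each structural list, Mrps36, the ribosomal proteins under other symbols and the 2 of lowest p in each other pathway list. Mrpl12, Mrpl23, Mrpl33, Mrpl35, Mrpl58, Mrpl48, Mrps2, Mrpl19 and the motif carriers are named beyond that rule, chosen after their values were seen.

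Coding lengths and 3′ UTRs came from GENCODE M21, and promoters and the microRNA from RefSeq, both on GRCm38, matched by identifier or symbol. Alternatives were other pseudocounts (0.1, 0.5), filters, scalings, variance models, library weights and libraries left out.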

Additional observations from a re-analysis of the deposited data

Results flagged for a closer look

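Among 78 groups of 5 libraries examined, 4 had a single library whose gap to its nearest neighbour exceeded the 95% critical value of 0.71 times the group's range. Chance gives about 1 in 20 such groups. Mrpl47 was at 7.38 TPM in control library 7, where the other controls ran from 11.8 to 13.5 TPM. Mrpl53 was at 43.7 TPM in control library 5, where the others ran from 50.6 to 53.2 TPM. Chchd1 was at 71.8 TPM in miR-130a-3p library 15, where the others ran from 84.5 to 88.8 TPM. Prorp was at 5.58 TPM in miR-130a-3p library 13, where the others ran from 3.01 to 3.64 TPM. None of these genes passed the limma test between the groups.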

How the results depend on the processing

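No paired analysis was possible because the groups share no library number. Of the values of single named genes, 711 kept their side of the threshold, 28 newly passed it and 50 no longer passed it. In 12 of these values the sign changed (Dap3, Mrpl30, Mrps23 and Aurkaip1), in genes that passed the threshold in none of the fits. The main counts were 4 members higher and 0 lower. Without a filter, 1 member and 0.486% of all genes were higher, and the higher counts were 16 for the respiratory chain and 0 for the cytosolic ribosome, synthetases and mitochondrially encoded genes, while the members' median minus that of all genes was 0.034. With median-ratio scaling 7 members were higher (median 0.13), as were 862 of the 15680 genes tested. Cytosolic ribosomal genes were then 1 lower and 2 higher, and 1 assembly gene and 1 subunit under another symbol were higher. With quantile normalization 8 members were higher (median 0.14), as were 6.73% of all genes, beside 3 cytosolic ribosomal genes, 3 synthetases, 2 mitochondrially encoded genes, 1 translation factor, 1 subunit under another symbol and 1 assembly gene, with 1 assembly gene lower. These scalings moved the median of all genes from -0.09 to 0.01 and 0.05, shifts of 0.10 and 0.14. The higher share of all calls went from 16.3% to 42.0% with median-ratio scaling, 49.4% with quantile normalization and 26.6% after rescaling without mitochondrially encoded genes. The members' median minus that of all genes was then 0.12, 0.09 and 0.12, against 0.11. That last rescaling left 1 assembly gene lower and a members' median of 0.075. The members' summed difference, 264 TPM as deposited, was 580, 520 and 510 TPM in these settings. Without a variance trend 2 members and 0 synthetases were higher. With library weights 9 members were higher and 2 lower (Mrps7 and Mrps10), where 4.44% of all genes were higher and 20.1% lower, with 2 cytosolic ribosomal genes higher and, lower, 5 assembly genes, 1 translation factor, 1 synthetase and 1 biogenesis regulator. Without control libraries 7 and 9, 8 members were higher, with 4 cytosolic ribosomal and 5 mitochondrially encoded genes. Lower were then 2 translation factors, 1 synthetase, 1 gene of DNA copying and 1 biogenesis regulator, with 0 synthetases higher and a members' median minus all genes of 0.19. The causes were not tested.

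With each library left out in turn, members were 0 to 7 higher and 0 to 1 lower, the members' median ran from -0.01 to 0.05, that minus all genes from 0.08 to 0.16, and the summed difference from 201 to 358 TPM. Higher counts ran from 14 to 48 for the respiratory chain (1 to 1 lower), 2 to 8 for mitochondrially encoded genes, 0 to 3 for the cytosolic ribosome (3 to 6 lower) and 0 to 1 for synthetases (0 to 2 lower). Lower counts ran from 0 to 4 for assembly, and from 0 to 1 for translation factors, DNA copying and biogenesis regulators. The number of libraries limits these calls, and depth is unknown.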
